A study of Mus musculus with 45 samples.

Results

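The comparison described here set 5 livers taken 3 h after an oral dose of vehicle against 5 livers of untreated mice, 10 of the 45 arrays in the series. All mice were male C57Bl/6J animals, 8 weeks old, fasted for 16 h before dosing, and none of these 10 received any drug. The untreated group was killed at 0 h, and the vehicle group was given 1% hydroxyethylcellulose by gavage, the suspending fluid used for acetaminophen (APAP) in the rest of the study, and killed 3 h later. Each array held the liver RNA of another mouse, and mice are numbered here by the replicate number in their labels. Food was given back after the fast, and the time of its return is not given in the sources used here. The groups therefore differ in gavage, in access to food and in the hour of killing, and these cannot be told apart in this comparison. What it gives is the change in liver transcripts that the time-matched vehicle arrays carry before any drug is considered. The series covered 9 groups of 5 mice, and the later vehicle groups, killed at 6, 9 and 24 h, are used below only to follow the genes that differed at 3 h.

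In a fasted liver, glucagon and glucocorticoids keep glucose production, fatty acid oxidation and ketone synthesis running, and the transcription factors FOXO1 and PPAR-alpha hold many of the genes for these tasks at a high level. When food returns, insulin moves FOXO1 out of the nucleus, and SREBP factors turn on the synthesis of fatty acids and sterols. Secretory protein synthesis also rises after a meal, and the liver then makes more of the chaperones that fold proteins in the endoplasmic reticulum (ER). The hour of feeding is itself a strong time cue for the clock of the liver. Levels below are log2 values made by RMA, in which background is corrected, arrays are brought to a shared distribution and the probes of a gene are summarized, so that differences between arrays are log2 fold changes. They can be compared between arrays for a gene, and not between genes.

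The 10 arrays split by group along the leading principal component, which held 42.6% of the variance, with untreated arrays between -17.1 and -11.4 and vehicle arrays between 10.5 and 16.7. Correlations across genes were 0.9933 to 0.9974 within the untreated group, 0.9938 to 0.9968 within the vehicle group and 0.989 to 0.9932 between them, and genes are not independent replicates. Array medians lay between 7.61 and 7.66 and lower quartiles between 6.28 and 6.43. Of 8 hepatocyte markers, among them Alb, Apoa1 and Ttr, all were measured and none was called (0 were higher and 1 was lower at an unadjusted p under 0.05), with a median log2 fold change of -0.0058. Their mean levels lay between 13.04 and 14.99, with 6 of 8 at 14 or more, near the top of the range of these arrays (15), where a change could be missed, so the markers show that the tissue holds hepatocyte RNA and say little on whether its amount differed. In whole tissue, fewer cells of a type and less RNA per cell cannot be told apart.

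At 3 h after vehicle, 363 of 18180 genes (2% of those tested) were called, which means an adjusted p under 0.05 from limma and a change of at least 1.5-fold. Of these, 208 were higher (1.14%) and 155 were lower (0.853%) than in untreated liver. The arrays of both groups did not overlap for 331 of the called genes, and over all genes 11.6% did not overlap, 6.84% with vehicle higher and 4.8% with vehicle lower. At least a 2-fold change was seen in 100 called genes, 51 higher and 49 lower, and at least a 4-fold change in 13, 7 higher and 6 lower. An adjusted p under 0.05 with no minimum change was reached by 2593 genes, and an unadjusted p under 0.05 by 4742 (14% of all genes higher and 12.1% lower). These shares, and the called shares of 1.14% and 0.853%, are the background for every list count below. The median log2 fold change of all genes was -0.022. Among the 10 largest increases of genes without overlap were those of Angptl8, Serpina7, Snord14e, Nrep, Sdf2l1, Hspa1b, Noct, Hsd3b5 and Creld2. The 10 largest decreases were those of Igfbp1, Lpin1, Zbtb16, Mt2, Angptl4, Rgs16, Depp1, Lpin2, G6pc and Rnf125.

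**Figure D1:**
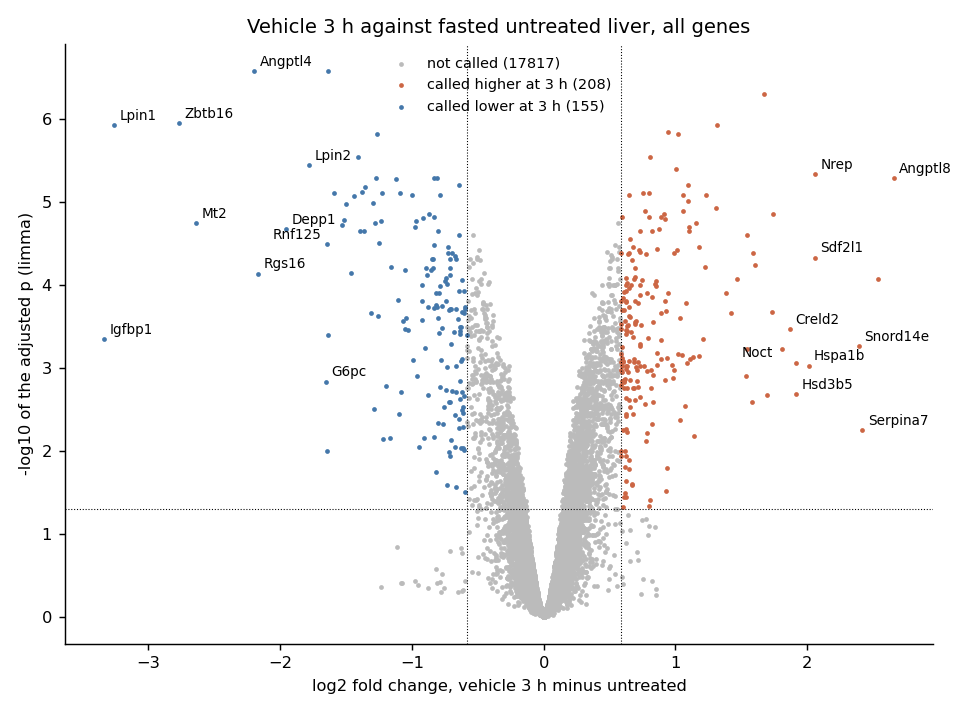
Points are the 18180 genes, with the log2 fold change of vehicle 3 h minus untreated on the x axis and -log10 of limma's adjusted p on the y axis. Coloured points are the 208 genes called higher and the 155 called lower, dotted lines mark the 1.5-fold and 0.05 thresholds, and the 10 largest changes in each direction among genes without overlap are labelled, as far as they are reported here.

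Several genes of glucose output fell. Of 21 measured genes of gluconeogenesis and FOXO targets, 7 were lower and none higher (15 were lower and 0 higher at an unadjusted p under 0.05, against 12.1% and 14% of all genes). The median log2 fold change of the list was -0.38. Igfbp1, a secreted binding protein for insulin-like growth factors that insulin represses through FOXO1, showed the largest decrease of all genes. Its level in untreated mice 1 to 5 was 13.58, 12.71, 12.64, 13.80 and 12.96, and in vehicle mice 1 to 5 it was 10.44, 10.71, 9.21, 8.01 and 10.65. All vehicle livers were below all untreated livers, with vehicle mouse 4 the lowest, and the log2 fold change was -3.33 ± 0.46 (SE, adjusted p = 0.000451). G6pc, the phosphatase that releases free glucose from the liver, was at 13.49, 13.36, 13.49, 13.55 and 13.38 in untreated mice and at 12.66, 12.34, 11.97, 11.01 and 11.04 after vehicle. The vehicle livers were more widely spread than the untreated livers, and all lay below them, and the log2 fold change was -1.65 ± 0.27 (SE, adjusted p = 0.00147). Pck1, which commits carbon to glucose synthesis, went from 12.91, 13.04, 13.11, 13.09 and 13.06 to 11.92, 12.24, 12.42, 11.37 and 10.82, without overlap, a log2 fold change of -1.29 ± 0.24 (SE, adjusted p = 0.00311). Vehicle mice 4 and 5 had the lowest levels of G6pc and of Pck1. The aminotransferase Got1 was lower too (-0.81). Members outside the rule for named genes that were also called lower were Ppargc1a, a coactivator of the fasting programme (-1.16), Irs2, an insulin receptor adaptor that FOXO1 induces (-0.92), and Foxo1 itself (-0.62). The call of Foxo1 held in 8 of 10 fits that left out an array, and its log2 fold change was then between -0.71 and -0.54.

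Angptl8, a secreted protein made by the liver after feeding that steers circulating triglyceride between tissues, rose the most of all genes. Its level was 8.82, 9.11, 8.79, 8.77 and 8.88 in untreated mice and 11.47, 11.77, 11.89, 11.84 and 10.70 after vehicle, with vehicle mouse 5 the lowest of its group, and the log2 fold change was 2.66 ± 0.19 (SE, adjusted p = 5.19e-06). Of the 22 measured genes of glucose use and glycogen 1 was called higher and 1 lower (7 higher and 6 lower at an unadjusted p under 0.05, against 14% and 12.1% of all genes). Txnip, an arrestin-related protein that restrains glucose uptake, was at 10.88, 10.70, 10.53, 11.10 and 10.71 in untreated and 9.10, 9.33, 9.64, 9.41 and 9.26 in vehicle mice, and was called lower (-1.44). The members not called ran from -0.56 (Ppp1r3g) to 0.52 (Pfkfb3), with Pklr, the liver pyruvate kinase, at 0.20, and the list's median was -0.025. Without untreated mouse 2, 2 members were called higher in place of 1.

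**Figure D2:**
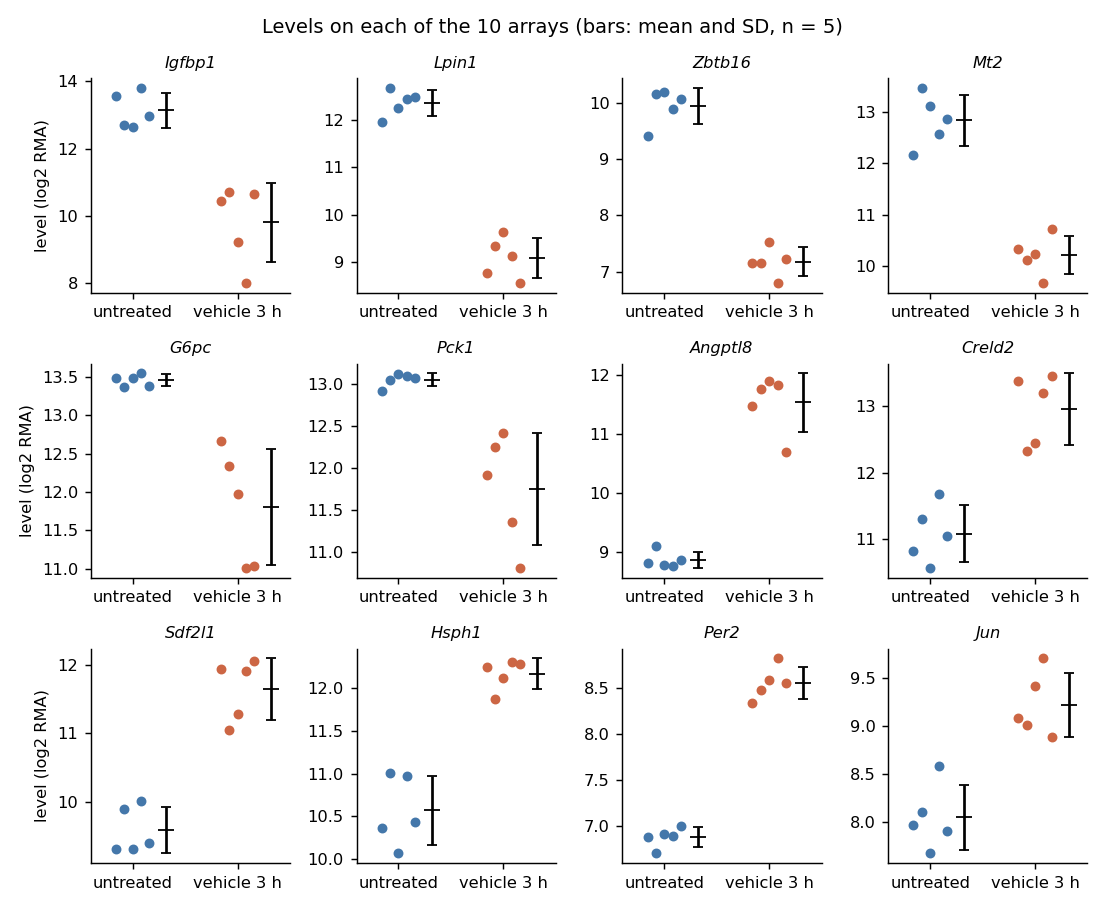
Log2 RMA levels of 12 genes on each of the 10 arrays, untreated livers in blue and vehicle 3 h livers in orange, with the mean and SD of each group (n = 5) beside the points. No gene shown has overlapping groups, with Igfbp1, Lpin1, Zbtb16, Mt2, G6pc and Pck1 lower and Angptl8, Creld2, Sdf2l1, Hsph1, Per2 and Jun higher after vehicle.

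Most genes of fatty acid oxidation were not called while a few fasting targets fell steeply. In the list of PPAR-alpha targets and fatty acid oxidation, 4 of 31 measured members were called lower and none higher (11 lower and 1 higher at an unadjusted p under 0.05, against 12.1% and 14% of all genes). The list's median was -0.020. Lpin1, a phosphatidate phosphatase that also acts as a nuclear coactivator and is induced by fasting, had levels of 11.94, 12.66, 12.24, 12.43 and 12.47 in untreated and 8.77, 9.35, 9.63, 9.13 and 8.57 in vehicle mice. This was a log2 fold change of -3.26 ± 0.19 (SE, adjusted p = 1.2e-06), a 9.58-fold fall with the groups far apart. Its relative Lpin2 fell too, by 1.78 on the log2 scale (standard error 0.12), from between 11.04 and 11.62 to between 9.24 and 9.72. Angptl4, a secreted inhibitor of lipoprotein lipase, was at 12.42, 12.47, 12.39, 12.67 and 12.51 and then at 10.39, 10.37, 10.58, 9.96 and 10.19, with little spread in either group, and the log2 fold change was -2.20 ± 0.10 (SE, adjusted p = 2.66e-07). Pdk4, the kinase that shuts pyruvate dehydrogenase during fasting, was also called lower (-1.64). By contrast the genes of the oxidation machinery, such as Cpt2 (-0.04), Acadm (-0.02) and Hadha (0.06), were not called. Cpt1a, the gate of fatty acid entry into mitochondria, changed by -0.43 with an adjusted p of 0.000325 and so stayed under the 1.5-fold minimum. Cyp4a14, a classical PPAR-alpha target, had a log2 fold change of -0.01 ± 0.04 (SE, adjusted p = 0.905), at levels of 14.49 to 14.60 near the top of the range of these arrays.

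Fgf21, a fasting hormone of the liver, was not called. Its level was 10.92, 9.05, 8.61, 10.03 and 8.82 in untreated and 8.15, 7.84, 7.82, 8.19 and 9.87 in vehicle mice. Vehicle mouse 5 stood above the other 4 of its group and above 3 of the untreated mice, and the log2 fold change was -1.11 ± 0.46 (SE, adjusted p = 0.147). Without vehicle mouse 5 it was -1.49 with an adjusted p of 0.0277, which is a call.

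Sterol genes rose in part, and their rise was uneven between mice. Of 22 measured genes of sterol synthesis, 3 were called higher and none lower (8 higher and 0 lower at an unadjusted p under 0.05, against 14% and 12.1% of all genes), with a median of 0.27. Sqle, the squalene epoxidase of cholesterol synthesis, was at 8.15, 8.05, 8.55, 8.25 and 8.29 and after vehicle at 9.68, 11.36, 9.80, 9.47 and 9.44, a log2 fold change of 1.69 ± 0.30 (SE, adjusted p = 0.00212). Mvd, which decarboxylates mevalonate diphosphate, was at 6.69, 6.53, 6.91, 6.70 and 6.65 and then at 8.08, 9.39, 7.68, 7.91 and 8.08, a log2 fold change of 1.53 ± 0.25 (SE, adjusted p = 0.00127), and its untreated levels were near the lower quartile of the arrays. Stard4, a carrier of cholesterol between membranes, had a log2 fold change of 1.09. In vehicle mouse 2 all 22 members had their highest level among the 5 vehicle mice. The median over the list, set against the untreated mean, was 1.08 in that mouse and between 0.021 and 0.206 in the other 4. In untreated mice it was between -0.121 and 0.176, a range that held vehicle mice 1, 4 and 5. Without vehicle mouse 2 the list's median was 0.14, the same number of members was called (3, again Sqle, Mvd and Stard4), and the log2 fold changes of Sqle and Mvd were 1.34 and 1.24. In the lipogenesis list only Elovl6, a fatty acid elongase, was called (0.62, 1 higher and 0 lower of 19, with 5 higher and 1 lower at an unadjusted p under 0.05, median 0.069). Its call was lost without untreated mouse 2 or vehicle mouse 1, where its log2 fold change was as low as 0.55. Fatty acid synthase, Fasn, had a log2 fold change of 0.56 with an adjusted p of 0.013 in limma and so stayed under the 1.5-fold minimum. Srebf1, the insulin-driven regulator of the pathway, had one of -0.11 ± 0.17 (SE, adjusted p = 0.718).

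Several glucocorticoid-responsive genes fell. Of 14 measured members 7 were called lower and none higher (10 lower and 0 higher at an unadjusted p under 0.05, against 12.1% and 14% of all genes), with the lowest median of the 22 lists, -0.62. Zbtb16, a transcription factor that glucocorticoids induce strongly, was at 9.41, 10.15, 10.18, 9.88 and 10.07 and fell to 7.16, 7.16, 7.53, 6.80 and 7.23, a log2 fold change of -2.76 ± 0.15 (SE, adjusted p = 1.12e-06). Mt2, a metallothionein that binds zinc and copper and responds to both metals and glucocorticoids, was at 12.16, 13.47, 13.13, 12.58 and 12.87 and then at 10.32, 10.12, 10.22, 9.66 and 10.71. Its groups did not overlap and its log2 fold change was -2.64 ± 0.23 (SE, adjusted p = 1.8e-05). Its neighbour Mt1 had a smaller log2 fold change of -1.06, from between 12.07 and 12.86 to between 11.13 and 11.71. Klf9 (-0.90), the receptor co-chaperone Fkbp5 (-0.83) and the transcription factors Cebpd (-0.64) and Cebpb (-0.63) were the other members called, outside the rule for named genes. Tsc22d3, a further target, had -0.62 and was not called, and Nr3c1, the receptor, had 0.14. The calls of Cebpd and Cebpb held in 8 and 9 of 10 fits that left out an array. Vehicle mice differed on this list, whose median over members was set against the untreated mean. It was -0.162 in vehicle mouse 2, above untreated mouse 1 at -0.276, and between -0.821 and -0.562 in the other vehicle mice. The 10 largest decreases also held genes of no list, Rgs16, a regulator of G-protein signals whose liver level follows fasting and feeding (from between 9.24 and 10.67 to between 7.56 and 8.04), and the ubiquitin ligase Rnf125 (-1.65).

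The list with the most called genes was that of ER chaperones. Of 24 measured genes of ER folding and ER quality control, 13 were called higher and none lower (22 higher and 0 lower at an unadjusted p under 0.05), 18 had no overlap between groups, and the median log2 fold change was 0.64. Over all genes 1.14% were called higher, 14% were higher at that p and 6.84% had no overlap with vehicle higher. Sdf2l1, an ER protein that works with the chaperone BiP, was at 9.32, 9.90, 9.32, 10.01 and 9.40 in untreated and 11.94, 11.05, 11.28, 11.91 and 12.05 in vehicle livers, a log2 fold change of 2.06 ± 0.20 (SE, adjusted p = 4.69e-05). Creld2, an ER-resident protein induced by ER stress, went from 10.82, 11.30, 10.57, 11.68 and 11.05 to 13.38, 12.32, 12.44, 13.19 and 13.44, a log2 fold change of 1.87 ± 0.25 (SE, adjusted p = 0.000341). Syvn1, the ubiquitin ligase of ER-associated degradation, went from 11.30, 11.66, 11.28, 11.73 and 11.46 to 13.31, 12.30, 12.60, 13.20 and 13.11, a log2 fold change of 1.42 ± 0.18 (SE, adjusted p = 0.000219). Vehicle mice 2 and 3 had the lowest levels of all 3 genes in their group, still above every untreated liver. The same order held for the list, whose median over members was 0.346 and 0.512 above the untreated mean in vehicle mice 2 and 3 and 0.729, 0.767 and 0.743 in mice 1, 4 and 5. Further members were Manf, a secreted ER stress protein (1.38), the chaperone Hyou1 (1.21), Derl3, a channel component of ER-associated degradation (0.93), the isomerases Pdia4 (0.76), Pdia6 (0.73) and Pdia3 (0.63), the BiP cofactors Dnajb11 (0.74) and Dnajb9 (0.68), BiP itself, Hspa5 (0.72), and Hsp90b1 (0.65). Xbp1, a transcription factor of this response, had no overlap but a smaller change (0.50), and Herpud1 had 0.26, neither of them called.

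The promoters of this list were read from RefSeq (GRCm38.p6, 250 bases before to 50 after the start) because ER stress genes are known to carry an ER stress element, in which CCAAT and CCACG stand 9 bases apart. This motif was searched on both strands after the values had been seen. It was present for 9 of 19 list members with a promoter in the table, against 20 of 14260 measured genes with one (0.14%), these 9 included. As genes of this kind are known to carry the element, this contrast follows from the choice of list and says nothing on the change at 3 h. Of the 11 called members with a promoter, 6 had it, namely Hspa5, Hsp90b1, Pdia6, Creld2, Syvn1 and Derl3. Calr, Canx and Dnajc3 had it and were not called. The promoters of Creld2 (chr15:88819396-88819695, plus strand) and Syvn1 (chr19:6046326-6046625, plus strand), the called members with the largest changes that held a match, are given 5′ to 3′ with the match in capitals, and that of Creld2 is on the opposite strand.
Creld2: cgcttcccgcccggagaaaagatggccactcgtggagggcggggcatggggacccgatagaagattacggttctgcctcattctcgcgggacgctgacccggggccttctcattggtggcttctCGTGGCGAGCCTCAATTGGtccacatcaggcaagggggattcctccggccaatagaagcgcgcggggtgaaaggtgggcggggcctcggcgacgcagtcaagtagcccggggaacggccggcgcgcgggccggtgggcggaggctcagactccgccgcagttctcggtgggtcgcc
Syvn1: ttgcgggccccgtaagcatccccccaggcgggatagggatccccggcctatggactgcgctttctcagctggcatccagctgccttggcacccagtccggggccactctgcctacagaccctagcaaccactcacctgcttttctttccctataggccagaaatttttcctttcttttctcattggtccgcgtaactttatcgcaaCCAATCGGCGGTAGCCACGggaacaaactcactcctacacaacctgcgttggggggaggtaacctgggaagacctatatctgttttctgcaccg
The first base of the match was at position -126 of Creld2 and -44 of Syvn1, counted from the start.

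Chaperones of the cytosol rose as well. Of 17 measured heat shock genes 11 were called higher and none lower (16 higher and 0 lower at an unadjusted p under 0.05), 15 had no overlap, and the median of 0.86 was the highest of the 22 lists. The shares over all genes were 1.14% called higher, 14% higher at that p and 6.84% without overlap and with vehicle higher. Hspa1b, the stress-inducible HSP70, was at 10.57, 10.78, 9.49, 11.12 and 9.67 and after vehicle at 12.31, 11.69, 12.12, 12.95 and 12.63, a log2 fold change of 2.01 ± 0.31 (SE, adjusted p = 0.000945). Its near-identical copy Hspa1a was at 5.69, 5.98, 5.26, 5.89 and 5.10 and then at 6.64, 6.93, 6.88, 7.85 and 7.32, and changed by 1.54. Untreated Hspa1a levels lay under the lower quartile of the arrays, and how far signal is shared between these copies is uncertain. Hsph1, a large HSP110 chaperone that helps HSP70 release its clients, was at 10.36, 11.01, 10.07, 10.97 and 10.43 and then at 12.26, 11.88, 12.13, 12.31 and 12.29, with little spread after vehicle, a log2 fold change of 1.60 ± 0.16 (SE, adjusted p = 5.8e-05). The HSP40 proteins Dnajb1 (1.31) and Dnaja1 (0.67), the HSP90 partners Chordc1 (1.09), Fkbp4 (0.94), Stip1 (0.89) and Ahsa1 (0.61), Bag3 (1.05) and Hspa4l (0.86) were the other members called. The mice differed little in Fkbp4, with untreated livers from 10.47 to 10.71 and vehicle livers from 11.42 to 11.55. Ahsa1 held its call in 7 of 10 fits that left out an array. Hsf1, the factor that drives this response, had 0.32 and was not called. The value assigned to Snord14e, annotated as a small nucleolar RNA, rose by 2.39 on the log2 scale. Snord14e lies at chr9:40804748-40804838, inside the span of the chaperone gene Hspa8 (chr9:40801276-40805202, GRCm38.p6), which was not analysed here. Whether this signal came from the small RNA or from transcripts of Hspa8 was not tested.

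The heat shock element, 3 units of alternating GAA and TTC spaced by a pair of bases, was also searched after the values were seen. It was found in 3 of 14 promoters of the list, against 86 of 14260 (0.6%), and 2 of the 11 called members with a promoter had it. As for the ER list, the contrast with all genes says nothing on the change at 3 h. Chordc1 (chr9:18292017-18292316, plus strand) is shown with 3 overlapping matches around the start in capitals.
Chordc1: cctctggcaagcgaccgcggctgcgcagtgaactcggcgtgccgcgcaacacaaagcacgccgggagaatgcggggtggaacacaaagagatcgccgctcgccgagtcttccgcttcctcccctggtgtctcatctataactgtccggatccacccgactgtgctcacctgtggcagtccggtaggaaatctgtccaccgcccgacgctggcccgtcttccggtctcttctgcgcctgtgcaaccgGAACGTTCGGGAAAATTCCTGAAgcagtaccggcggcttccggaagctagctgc
Hsph1, which has 2 listed starts, also had a match, at position 37 from the first and 16 from the other. Hspe1 had matches with a change of 0.42 that was not called.

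**Figure D3:**
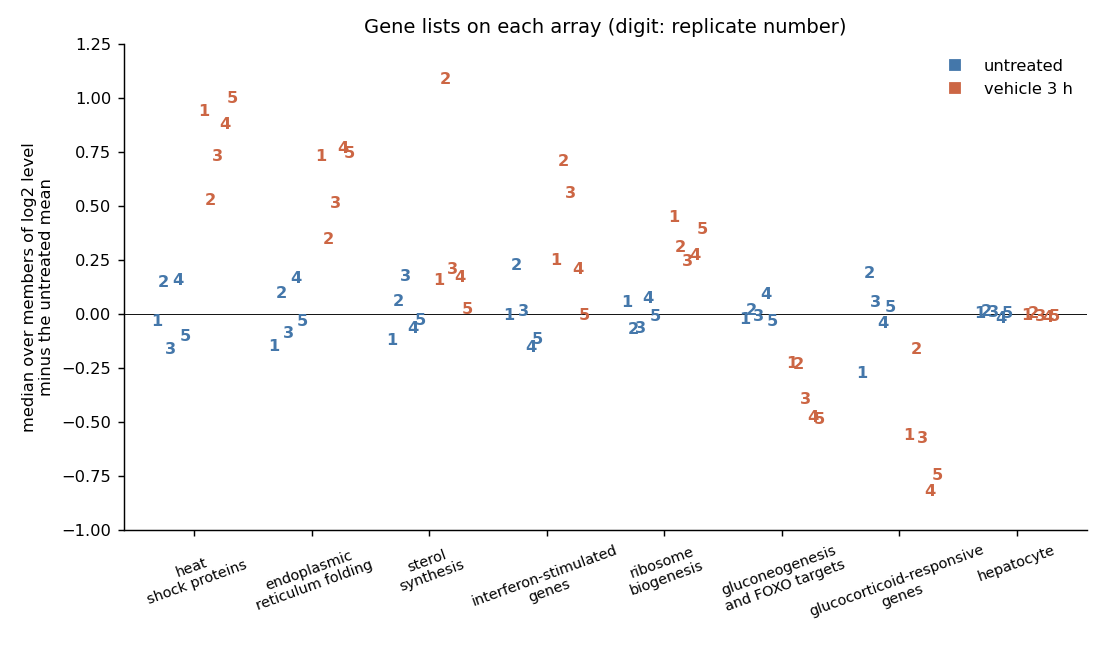
For 8 gene lists, each digit is a mouse (its replicate number), placed on the y axis at the median over the list's members of the log2 level minus the mean of the untreated livers, in blue for untreated and orange for vehicle 3 h. Heat shock and ER folding lists are above all untreated livers in every vehicle mouse, the sterol list stands at 1.08 in vehicle mouse 2 and at or below 0.206 in the others, and the hepatocyte markers, 6 of 8 of them near the top of the range, are shown for the tissue only.

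A few interferon-stimulated genes were higher. Of 31 measured members 5 were called higher and none lower, 18 were higher and 0 lower at an unadjusted p under 0.05 (14% and 12.1% of all genes), and the median was 0.34. Cxcl10, a chemokine that attracts T cells, was at 6.88, 7.36, 7.004, 6.76 and 6.63 and then at 8.09, 8.46, 7.97, 8.04 and 8.21, a log2 fold change of 1.23 ± 0.13 (SE, adjusted p = 6.03e-05). Also called were the immunity GTPases Igtp (0.79) and Irgm1 (0.61) and the oligoadenylate synthetase-like Oasl1 (0.78). The groups of Igtp overlapped, with vehicle mouse 5 at 10.44 and untreated mouse 2 at 10.50. Irgm1 held its call in 6 of 10 fits that left out an array. Ifit1, an antiviral protein, had 0.79 and was not called. The mice differed on this list, with medians above the untreated mean of 0.708 and 0.558 in vehicle mice 2 and 3, 0.246 and 0.207 in mice 1 and 4, and -0.006 in mouse 5, beside 0.225 in untreated mouse 2. The count of called members moved with single mice. It was 8 of 31 without untreated mouse 2 and 11 without vehicle mouse 5, and 3 without untreated mouse 5 or without vehicle mouse 2 or 3. Of the 10 markers of T and NK cells none was called (0 higher and 1 lower at an unadjusted p under 0.05, median -0.061).

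The interferon-stimulated response element in its short form, GAAANNGAA on either strand, was present in 12 of 22 promoters of this list and in 1232 of 14260 (8.64%), and 3 of 4 called members with a promoter had it. Here too the contrast with all genes says nothing on the change. Cxcl10 (chr5:92348840-92349139, minus strand) is shown because it had the largest change of the list, with the match at position -213 in capitals.
Cxcl10: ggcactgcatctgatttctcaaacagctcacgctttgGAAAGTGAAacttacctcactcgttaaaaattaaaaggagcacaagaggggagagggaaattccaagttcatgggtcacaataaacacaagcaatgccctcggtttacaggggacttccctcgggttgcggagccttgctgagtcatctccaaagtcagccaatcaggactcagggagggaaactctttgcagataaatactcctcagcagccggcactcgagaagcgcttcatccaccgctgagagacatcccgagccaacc
For the other lists searched, the called members that had a promoter sequence had no match in this window. A promoter was at hand for 7 of 7 called members of the gluconeogenesis list and 1 of 1 of the lipogenesis list. It was at hand for only 2 of 4 of the clock list, 1 of 3 of the sterol list and 3 of 5 of the immediate early list. TGTTTAC, a FOXO element, was in 1 of 18 promoters of the gluconeogenesis list (3.35% of all), CACGTG, the E-box, in 5 of 19 and TTATGTAA, the D-box, in 1 of 19 of the clock list (10.22% and 0.84% of all), and TCACCCCAC, a sterol regulatory element, in 1 of 15 of the sterol list and 0 of 16 of the lipogenesis list (0.7% of all). TGACGTCA, the cyclic AMP response element, was in 0 of 18 promoters of the gluconeogenesis list and 2 of 20 of the immediate early list (3.01% of all).

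Clock genes split by member. Of 24 measured genes 3 were called higher and 1 lower (4 higher and 8 lower at an unadjusted p under 0.05, against 14% and 12.1% of all genes), with a median of -0.064. Per2, a repressor of the clock that also responds to feeding and to heat shock factor, was at 6.89, 6.71, 6.92, 6.89 and 7.01 in untreated and 8.34, 8.48, 8.59, 8.83 and 8.56 in vehicle livers, a log2 fold change of 1.68 ± 0.08 (SE, adjusted p = 4.99e-07). Noct, a phosphatase of dinucleotide cofactors with a daily rhythm, went from 8.26, 8.69, 8.25, 7.72 and 8.27 to 10.36, 11.11, 10.32, 9.88 and 9.11, a log2 fold change of 1.92 ± 0.29 (SE, adjusted p = 0.00087). Bhlhe40, another repressor, had 0.71. Nfil3, a repressor of D-box genes, was called lower (-0.73), and this call was lost without untreated mouse 2 or 3 or without vehicle mouse 3, 4 or 5, where its change was as small as -0.62. The core genes Arntl (-0.30), Clock (-0.08), Per1 (-0.26) and Cry1 (0.05) were not called, and Nr1d1 had -0.53, under the 1.5-fold minimum. Dbp, a strongly rhythmic output gene, had levels of 7.72, 9.80, 9.33, 9.07 and 9.89 after vehicle against 8.56, 8.48, 9.02, 7.79 and 8.98 in untreated mice. Vehicle mouse 1 was lower than all untreated mice and the other 4 were higher than all of them, and the log2 fold change was 0.59 ± 0.36 (SE, adjusted p = 0.334). Without vehicle mouse 1 it was 0.95 with an adjusted p of 0.0282.

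**Figure D4:**
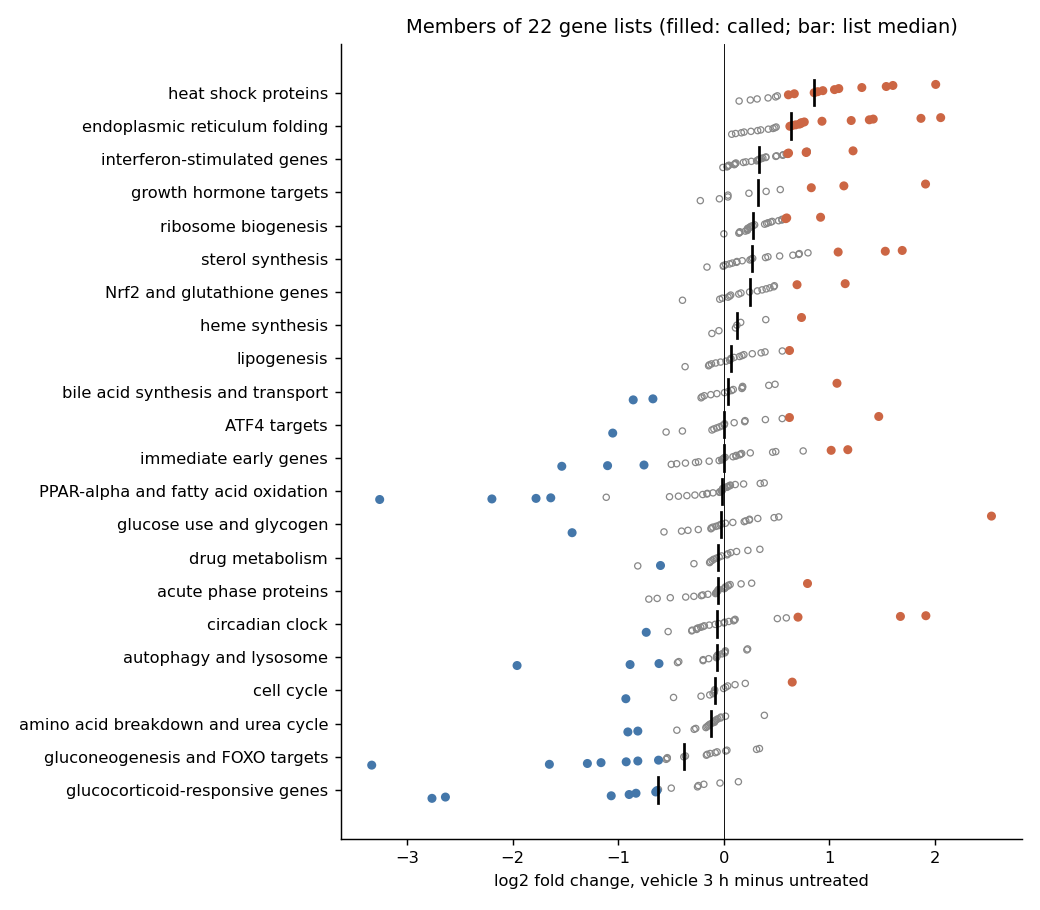
Log2 fold changes (vehicle 3 h minus untreated, x axis) of the measured members of 22 gene lists, ordered by median, with filled points for called members, open points for the others and a black bar at each list's median. The medians run from -0.62 for glucocorticoid-responsive genes to 0.86 for heat shock proteins.

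Immediate early and stress genes moved in both directions. Of 27 measured immediate early genes 2 were called higher and 3 lower (6 higher and 8 lower at an unadjusted p under 0.05, against 14% and 12.1% of all genes). Jun, a subunit of AP-1, rose from 7.97, 8.11, 7.67, 8.58 and 7.91 to 9.09, 9.02, 9.42, 9.71 and 8.88 (1.18), and Dusp6, a phosphatase of ERK kinases, rose by 1.02. Klf10, Ccn2 and Junb were lower (-1.53, -1.10 and -0.75), and Fos (0.25), Egr1 (0.75) and Myc (0.09) were not called. The ATF4 list had 2 of 17 called higher and 1 lower (6 higher and 3 lower at an unadjusted p under 0.05). In it Ddit3, the stress factor CHOP, rose by 1.47 and Psph, of serine synthesis, by 0.62, while Trib3, a pseudokinase known as a target of both ATF4 and CHOP, fell by 1.05 on the log2 scale, and Asns and Chac1 had 0.01 and -0.54, not called. Psph lost its call without untreated or vehicle mouse 5 (lowest change 0.52). Nrf2 targets had 2 of 17 called higher, the glutathione-synthesis enzyme Gclc (0.70) and Osgin1 (1.15), and none lower (8 higher and 1 lower at an unadjusted p under 0.05), while Nqo1 and Hmox1 had 0.16 and 0.48. Of 25 ribosome biogenesis genes 3 were called higher, Nop58 (0.92), Tsr1 (0.60) and Gnl3 (0.59), and none lower. At an unadjusted p under 0.05, 24 were higher and 0 lower, against 14% and 12.1% of all genes, and the median was 0.28. Tsr1 and Gnl3 lie just past the 1.5-fold minimum and 1 member in place of 3 was called without untreated mouse 2 or 3 or without vehicle mouse 1 or 5.

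Among metabolic and endocrine lists, growth hormone targets had 3 of 10 called higher and none lower (4 higher and 1 lower at an unadjusted p under 0.05). The share of all genes at that p was 14% higher and 12.1% lower, here and for the lists that follow. Hsd3b5, a male-specific steroid enzyme of mouse hepatocytes, rose from 8.49, 9.48, 9.39, 7.58 and 8.88 to 10.93, 10.77, 9.86, 11.24 and 10.59, a log2 fold change of 1.91 ± 0.34 (SE, adjusted p = 0.00208). Cish, a feedback inhibitor of STAT5 signals, had 1.14, and Igfals, the subunit that keeps IGF1 in the circulation, 0.83. Bile acid metabolism had 1 of 17 called higher and 2 lower (4 higher and 6 lower at an unadjusted p under 0.05). In it Cyp7a1, the rate-limiting enzyme of synthesis, rose by 1.07 ± 0.20 (SE, adjusted p = 0.0029), and the sterol exporters Abcg8 and Abcg5 were lower (-0.86 and -0.67). The call of Cyp7a1 was lost in the model over all 45 arrays. Heme synthesis had 1 of 7 called higher and none lower (2 higher and 0 lower at an unadjusted p under 0.05). In it Alad rose by 0.73, and Alas1, the rate-limiting step, had 0.16. Amino acid breakdown had 2 of 20 called lower, Sds, which turns serine into pyruvate (-0.91), and Got1, and none higher (7 lower and 1 higher at an unadjusted p under 0.05), and urea cycle genes such as Cps1 had values near zero (-0.05). Autophagy genes had 3 of 18 called lower and none higher (8 lower and 2 higher at an unadjusted p under 0.05). These were Depp1, a FOXO target (-1.96), the initiating kinase Ulk1 (-0.89) and Wipi1 (-0.61), the last lost without untreated mouse 4 or vehicle mouse 2 or 3 (smallest change -0.55). Drug metabolism had 1 of 16 called lower and none higher (3 lower and 2 higher at an unadjusted p under 0.05). This was Por, the electron donor of the P450 enzymes (-0.60, lost without untreated mouse 4 or vehicle mouse 2, smallest change -0.55). Cyp2e1 and Cyp3a11, which activate APAP, had -0.04 and -0.11, not called. Cyp2e1 is also a hepatocyte marker, and those markers had mean levels between 13.04 and 14.99. A change near the top of the range could be missed. Of 25 acute phase genes Steap4, a metalloreductase, was called higher (0.79) and none lower (2 higher and 7 lower at an unadjusted p under 0.05). In the cell cycle list Ccnd1 was higher (0.65) and Rrm2, a subunit of ribonucleotide reductase, lower (-0.93) of 14. At an unadjusted p under 0.05, 1 was higher and 3 were lower. The call of Ccnd1 was lost without untreated mouse 3 or vehicle mouse 5 (lowest change 0.57) and in the model over all 45 arrays.

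Serpina7 and Nrep, the remaining large increases, belonged to no list. Serpina7, the thyroxine-binding globulin, was at 7.04, 7.69, 6.90, 5.98 and 7.39 and then at 10.11, 10.59, 10.10, 8.53 and 7.74, a log2 fold change of 2.42 ± 0.50 (SE, adjusted p = 0.00566). Vehicle mouse 5 was the lowest of its group and just above untreated mouse 2. Nrep, a small protein named for nerve regeneration, was at 8.67, 9.12, 8.82, 8.56 and 8.34 and then at 10.53, 10.85, 10.97, 10.99 and 10.48, with the vehicle mice close together, a log2 fold change of 2.06 ± 0.14 (SE, adjusted p = 4.63e-06).

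Cell type markers other than those of hepatocytes showed few differences. Of 10 Kupffer cell markers Cd163 was lower (-0.71) and none was higher (0 at an unadjusted p under 0.05), with a median of -0.080, and Clec4f, a defining marker, had -0.19. Of 9 monocyte and macrophage markers Chil3 was higher (0.62, called in 6 of 10 fits that left out an array) and none lower (0 at an unadjusted p under 0.05). None of 8 neutrophil markers was called (0 higher and 3 lower at an unadjusted p under 0.05, against 14% and 12.1% of all genes, median -0.13). The iron importer Tfrc, which hepatocytes also make, was called in the erythroid list (0.86), and Alas2, a defining erythroid gene, had -0.14. None of the 6 adipocyte markers was called (0 in either direction at an unadjusted p under 0.05), with a median of 0.65. Adipoq was at 5.18, 7.14, 5.27, 5.08 and 5.44 in untreated and 5.13, 5.16, 5.36, 10.01 and 6.73 in vehicle mice, high in untreated mouse 2 and in vehicle mice 4 and 5. The summed linear level of the adipocyte markers ran from 2552 to 8187 in untreated and from 4900 to 14000 in vehicle livers. The part of adipose RNA in the values above was not tested.

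The later vehicle groups show how the 3 h values went on. Both tests below share the 3 h vehicle arrays with the comparison above, so a chance deviation of those arrays would appear in each of them. Between 3 and 6 h, 88 genes were called (0.484% of 18180), 40 higher (0.22%) and 48 lower (0.264%) at 6 h. This count was 48 to 123 with 1 array left out (lowest without vehicle 6 h mouse 4, highest without vehicle 3 h mouse 2), 56 with a replicate block and 0 in the test against a 1.5-fold change (37 at an unadjusted p under 0.05). Between 3 and 24 h, 634 were called (3.49%), 320 higher (1.76%) and 314 lower (1.73%). By their labelled times the 24 h and untreated groups lie a day apart, and clock times are not given in the sources used here.

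Some chaperone genes and the chemokine Cxcl10 were lower again by 6 h. Hspa1b had mean levels of 10.33 ± 0.713 (SD, n = 5) in untreated liver and 12.34 ± 0.483, 10.10 ± 0.997, 9.95 ± 0.548 and 10.99 ± 0.301 (SD, n = 5 each) at 3, 6, 9 and 24 h, and its change from 3 to 6 h was -2.24 (adjusted p = 0.0151). Cxcl10 went from 6.93 ± 0.277 in untreated liver to 8.15 ± 0.192 at 3 h and 7.24 ± 0.287 at 6 h (SD, n = 5 each), a change from 3 to 6 h of -0.92. The interferon-stimulated genes Igtp and Oasl1 were not called between 3 and 6 h (-0.09 and -0.07, adjusted p = 0.85 for both). Ddit3 and Syvn1 were also lower at 6 h (-1.14 and -0.75). Sdf2l1 and Creld2 were not called between 3 and 6 h (-0.19 and -0.27) and were lower at 24 h than at 3 h (-1.15 and -1.96).

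Genes of glucose and lipid metabolism followed several courses. Angptl8 stood at 11.53 ± 0.493 at 3 h and 10.67 ± 1.04 at 24 h (SD, n = 5 each), with no call between them. Lpin1, at 9.09 ± 0.429 at 3 h, was at 10.97 ± 0.437 at 24 h (SD, n = 5 each), a rise of 1.88. G6pc rose by 1.26 between these times and Depp1 by 1.90, and Igfbp1 did not pass the test (1.79, adjusted p = 0.0612). Metallothioneins went on falling, with a change from 3 to 24 h of -1.83 for Mt2 and -2.10 for Mt1. Srebf1, at 9.82 ± 0.272 in untreated liver and 9.70 ± 0.358 at 3 h, was at 10.87 ± 0.337 at 6 h and 12.50 ± 0.114 at 24 h (SD, n = 5 each), changes from 3 h of 1.17 and 2.80. Sqle and Mvd were each higher at 24 h than at 3 h, by 1.63 and 1.60. Hsd3b5 rose by a further 2.05.

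Several clock genes changed between 3 and 6 h. Dbp rose by 1.74 and Arntl and Nfil3 fell by 1.31 and 0.85 on the log2 scale. At 24 h Dbp was at 8.62 ± 0.521 and Arntl at 9.45 ± 0.235, beside 8.57 ± 0.496 and 9.69 ± 0.226 in untreated liver (SD, n = 5 each). Per2 was at 6.88 ± 0.11 in untreated liver, 8.56 ± 0.178 at 3 h and 7.84 ± 0.281 at 24 h (SD, n = 5 each), and the change from 3 to 24 h was -0.72. Of the 363 genes called at 3 h, 67 that were higher were lower at 24 h than at 3 h and 31 that were lower were higher, while 13 higher genes rose further and 13 lower genes fell further. Over all genes 1.73% were lower and 1.76% higher at 24 h. Between 3 and 6 h, 29 of the 363 were called, with 14 and 8 in the opposite direction and 2 and 5 in the same direction. The shares over all genes were 0.264% lower and 0.22% higher. These genes were selected on the 3 h arrays, which both tests share, so chance alone favours a change back, and a return was not tested apart from it.

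**Figure D5:**
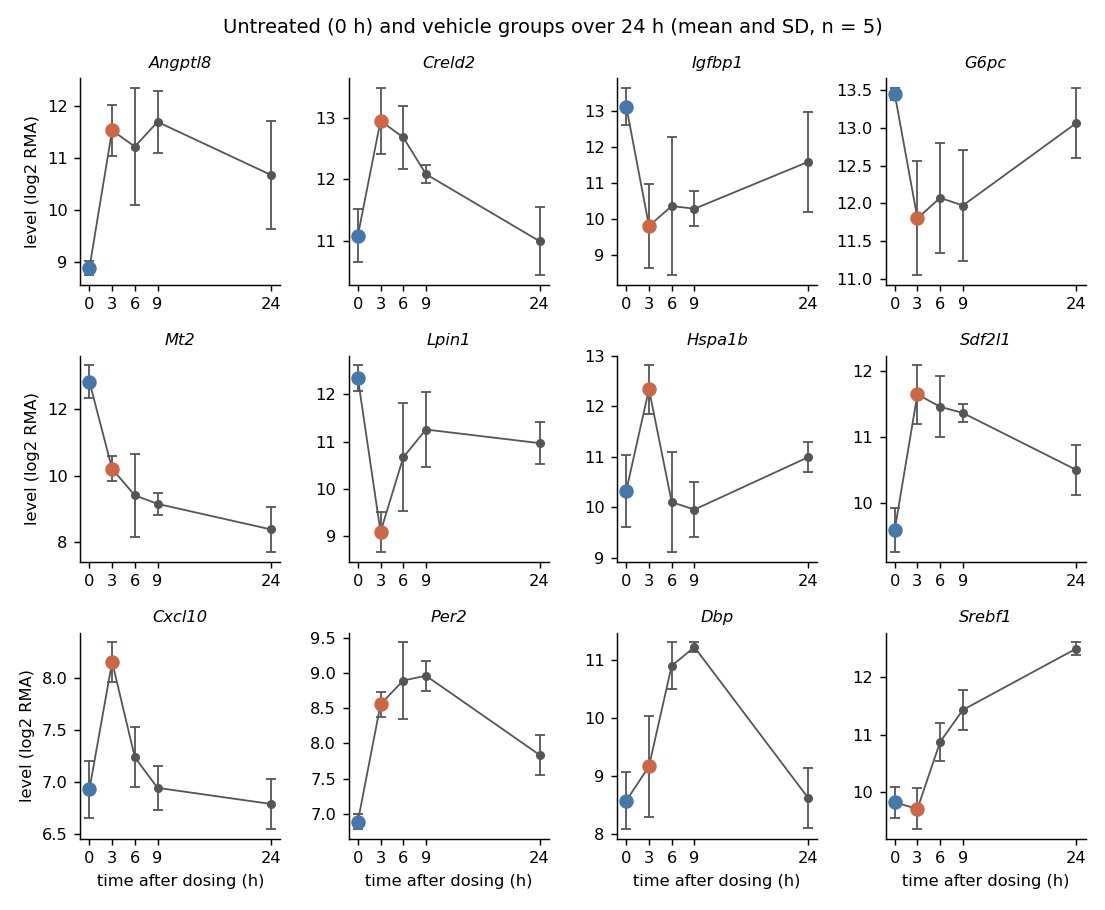
Mean log2 RMA level and SD (n = 5 mice per time) of 12 genes in untreated liver (0 h, blue), vehicle 3 h (orange) and the vehicle groups at 6, 9 and 24 h (grey), with time after dosing in hours on the x axis. Hspa1b and Cxcl10 peak at 3 h, Angptl8 is at 11.53 at 3 h and 10.67 at 24 h, and Srebf1 moves from 9.70 at 3 h to 12.50 at 24 h.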

How the data were processed

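Liver RNA of 45 male mice was hybridized to Affymetrix Mouse Genome 430 2.0 arrays from 5 µg of total RNA. The log2 values were computed by the authors, as deposited, with RMA in affy 1.64.0 under R 3.6.1, with the BrainArray probe sets, version 24, that pool all probes of an Entrez gene, and the authors used limma 3.42.2. Groups were taken from the sample labels. All 18180 genes were kept, 18172 of them with a RefSeq symbol, and nothing was normalized again. A second table holds 45 value columns that no label ties to a mouse and was not used.

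Each comparison was fitted on its 10 arrays with lmFit and eBayes in limma 3.58.1 (R 4.3.3), two-sided, with p-values adjusted over all genes by Benjamini-Hochberg. Calls needed both a 1.5-fold change and an adjusted p under 0.05, as in the study's methods. The mice of a group are separate animals, their number limits the precision, and no RNA was measured on more than 1 array. The members, the 22 process lists and the 12 marker lists were chosen with earlier results of these data known. Genes are named by a rule: the 10 largest called changes in each direction without overlap, up to 3 called members of each list with the largest change, and 17 genes given by name. Other list members and the ER stress and heat shock motifs were picked after their values were seen. Motifs were matched as letters in RefSeq promoters of 14260 measured genes, and a match is a description of the sequence. Some genes, counted in the totals, are not reported here by name. The fit was tested on simulated data. Alternatives were leaving out each array, a replicate block, 1 model over all 45 arrays, trend and robust moderation, array weights, removal of the dimmest 25% of genes, re-centred arrays, a test against a 1.5-fold change and an adjusted p under 0.01.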

Additional observations from a re-analysis of the deposited data

Results flagged for a closer look

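The groups of 5 arrays of the 69 named genes were tested for an array far from the others of its group, by a gap of over 0.71 of the group's range, and 5 of 138 groups had one, where chance gives about 1 in 20. In vehicle mouse 2, Sqle was at 11.36 (the other 4 between 9.44 and 9.80), Mvd at 9.39 (7.68 to 8.08) and Gclc at 12.29 (12.56 to 12.67). Fgf21 was at 9.87 in vehicle mouse 5 (7.82 to 8.19), and Ulk1 at 9.40 in vehicle mouse 3 (9.06 to 9.14).

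The vehicle groups at 6 and 24 h were tested against the 3 h group, which they share with the main comparison. Of the 69 named genes 12 differed between 3 and 6 h, against 0.484% of all genes. Many named genes were chosen by their change on the 3 h arrays, so chance alone favours a difference here and at 24 h. The test against a 1.5-fold change left 0 genes between 3 and 6 h. On the log2 scale Dbp (1.74), Srebf1 (1.17), Angptl4 (0.89) and Lpin2 (0.81) were higher at 6 h, and Hspa1b (-2.24), Arntl (-1.31), Ddit3 (-1.14), Hspa1a (-1.12), Cxcl10 (-0.92), Nfil3 (-0.85), Syvn1 (-0.75) and Cyp7a1 (-0.63) were lower.

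Between 3 and 24 h 29 of the genes reported here differed, against 3.49% of all genes. Higher at 24 h were Srebf1 (2.80), Hsd3b5 (2.05), Depp1 (1.90), Lpin1 (1.88), Sqle (1.63), Mvd (1.60), Rnf125 (1.35), G6pc (1.26), Elovl6 (1.21), Lpin2 (1.20), Abcg5 (0.70), Stard4 (0.69) and Sds (0.69). Lower at 24 h were Mt1 (-2.10), Creld2 (-1.96), Mt2 (-1.83), Hsph1 (-1.44), Cxcl10 (-1.37), Hspa1b (-1.35), Igtp (-1.27), Sdf2l1 (-1.15), Cyp7a1 (-1.14), Syvn1 (-1.13), Ddit3 (-1.10), Por (-0.80), Oasl1 (-0.73), Per2 (-0.72), Gnl3 (-0.61) and Tsr1 (-0.60).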

How the results depend on the processing

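The replicate numbers did not pair the mice (correlations of same-numbered deviations between -0.245 and 0.192, the best match being the own number for 1 of 5), and with a replicate block 367 genes were called at 3 h in place of 363, with no call of a named gene changed. Between 3 and 6 h the block gave 56 calls in place of 88, 20 of them higher in place of 40. Array weights gave 65 higher between 3 and 6 h, and an adjusted p under 0.01 gave 39 calls there, 16 higher and 23 lower. The test against a 1.5-fold change left 60 genes at 3 h (29 higher, 31 lower), 0 between 3 and 6 h (0 higher and 0 lower in limma, 37 at an unadjusted p under 0.05) and 138 between 3 and 24 h (83 higher, 55 lower), since it asks that the change exceed that size and not zero. With 1 array left out, 340 to 401 genes were called at 3 h (175 to 244 higher, 146 to 169 lower). The range was 48 (without vehicle 6 h replicate 4) to 123 (without vehicle 3 h replicate 2) between 3 and 6 h, with 19 to 74 higher and 29 to 49 lower, and 593 to 700 between 3 and 24 h, with 291 to 367 higher and 291 to 352 lower. Of 69 named genes, 68 kept their direction in every setting run, and Cyp4a14, at -0.011, lay between -0.023 and 0.001 with 1 array left out, above 0 without untreated replicate 1 or vehicle 3 h replicate 2. Call and direction were both the same in every setting for 28 named genes, and the test against a 1.5-fold change ended 38 of the 60 calls. Of the 60 called genes, 52 kept their call with each array left out, as did 35 of 42 called genes outside the rule. Dim genes such as Hspa1a are measured least well.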

Other observations

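Some genes outside the lists, picked after their values were seen, differed as clearly as the named ones. The cold-inducible RNA-binding proteins Rbm3 and Cirbp, which respond alike to a lower temperature in cultured cells, went opposite ways, with log2 fold changes of 1.73 (standard error 0.21, adjusted p = 0.00021) and -1.50 (standard error 0.12, adjusted p = 1.07e-05). Rbm3 was between 6.80 and 7.82 in untreated and between 8.57 and 9.37 in vehicle livers, and Cirbp between 8.81 and 9.51 and between 7.64 and 7.96, so neither gene had overlapping groups. Onecut1, a hepatocyte transcription factor also called HNF6, rose by 1.81, Cyp26a1, which degrades retinoic acid, by 1.59, Slc10a2, the apical bile acid carrier, by 1.54 from levels near the lower quartile of the arrays, and Rcan1, an inhibitor of calcineurin, by 1.32. The cell cycle inhibitor Cdkn1a and Ccng2, a FOXO target, had log2 fold changes of -1.46 and -1.64. Each of these 8 calls held with any array left out.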
